A study of Homo sapiens with 14 samples.

Results

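The 6 genes described here encode the subunits of hypoxia-inducible factor (HIF) and the protein that marks its alpha subunits for destruction. They are HIF1A (HIF-1α), EPAS1 (HIF-2α), HIF3A (HIF-3α), ARNT (HIF-1β), ARNT2 and VHL, and they were chosen by gene symbol from 23106 genes counted in 14 libraries of polyadenylated RNA. PC3, a human prostate cancer line grown in DMEM/Hams F12, was kept in normoxia (21% O2) or in hypoxia (0.5% O2 for 16 h), with 4 replicates per condition. HCT116, a human colorectal cancer line grown in McCoy's 5a, was kept in the same conditions with 3 replicates each. Each line came with a single medium, so line and medium cannot be told apart. The labels give no knock-out or transgene in these groups. The study's methods call the replicates biological, without saying how they were separated, and p-values measure the spread between them within each cell line.

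HIF is a pair of an alpha and a beta subunit that binds DNA together. When oxygen is plentiful, prolyl hydroxylases modify the alpha subunits, VHL recognises the modified protein as the substrate receptor of a cullin ubiquitin ligase, and the protein is degraded. When oxygen is scarce the alpha subunits persist, pair with ARNT or ARNT2 and switch on genes for glycolysis, blood vessel growth and oxygen supply. This control acts on protein, and the values below are of mRNA.

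On GRCh37, HIF1A lies at chr14:62162231-62214977 on the plus strand and EPAS1 at chr2:46520806-46613836 on the plus strand. HIF3A lies at chr19:46800299-46846690 (plus), ARNT at chr1:150782189-150849184 (minus), ARNT2 at chr15:80696692-80890274 (plus) and VHL at chr3:10183462-10195351 (plus). Values are counts over the whole gene, so they do not separate exons, untranslated regions or isoforms. Noncoding transcripts are annotated across parts of HIF1A, HIF3A, ARNT, ARNT2 and VHL. The strand setting of the counting is not given in the sources used here, so reads of such transcripts cannot be told apart from those of the gene. EPAS1, whose level differed most between the lines among the 5 members that passed the filter on low counts, has a single match to the core letters of the HIF response element within its RefSeq promoter window, from 250 bases before to 50 bases after the start. The line below gives that match with the bases around it, 5′ to 3′, with GCGTG in capitals, from the RefSeq promoter table and placed on the plus strand of GRCh37 by exact match at chr2:46524414-46524448.
EPAS1: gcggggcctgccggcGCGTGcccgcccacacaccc

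The match begins 117 bases before the RefSeq start. ACGTG and GCGTG were searched on both strands. GCGTG was present in 36.5% of 35116 promoter windows of the same length and either form in 48.4%, so a match is common and is given as a description only.

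Total counts per library were 71228454 to 123935458 in PC3 and 133067391 to 150630928 in HCT116, so a floor of 3 counts stood at 0.0199 to 0.0421 CPM (a count relative to the sum of its library, adjusted by TMM factors in all values but this floor). The label of the PC3 libraries was met by VIM (763 ± 101 CPM in hypoxia, SD, n = 4) and HOXB13 (74.7 ± 12.7 CPM), while KLK3, which encodes prostate-specific antigen, was at 0 in every library. CDX2, an intestinal transcription factor, was at 17.6 ± 1.45 CPM in normoxic HCT116 (n = 3) and at 0 in PC3. It was the only one of the 4 intestinal markers above 1 CPM there, as CDX1 was at 0 and VIL1 and ASCL2 did not exceed 8 counts in any HCT116 library. The 4 epithelial markers were all above 1 CPM in every group, with summed levels of 2823 to 3959 CPM. The libraries of hypoxic PC3 differed in one respect that touches the results below. PC3 hypoxia replicate 4 had the lowest total of all, and 157 of 12638 genes were at least as far below the median of the other 3 hypoxic libraries as VHL was, against 20, 6 and 8 genes of that depth in replicates 1 to 3.

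HIF1A was the most abundant member in both lines, and EPAS1 held a different place in each. Levels between genes were compared as TMM-scaled CPM per kilobase of the longest annotated transcript. In normoxic PC3, HIF1A stood at 168 ± 19.6 CPM per kb (SD, n = 4) and above 98.6% of the genes ranked, EPAS1 at 53.1 ± 6.26, VHL at 15.3 ± 0.77, ARNT at 6.45 ± 0.45, ARNT2 at 0.322 ± 0.123 and HIF3A at 0.00115 ± 0.00156. In normoxic HCT116 the order was HIF1A at 53.9 ± 1.84 (n = 3), VHL at 14.2 ± 0.465, ARNT at 8.92 ± 0.367, EPAS1 at 4.34 ± 0.477, ARNT2 at 0.953 ± 0.079 and HIF3A at 0.0161 ± 0.0131. Neighbours in these orders did not overlap between libraries in any of the 4 groups, and hypoxia left both orders as they were. With the union of exons in place of the longest transcript, the order was the same in all 4 groups. Scaling by total count multiplies all genes of a library alike, so it could not change an order shared by every library.

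**Figure D1:**
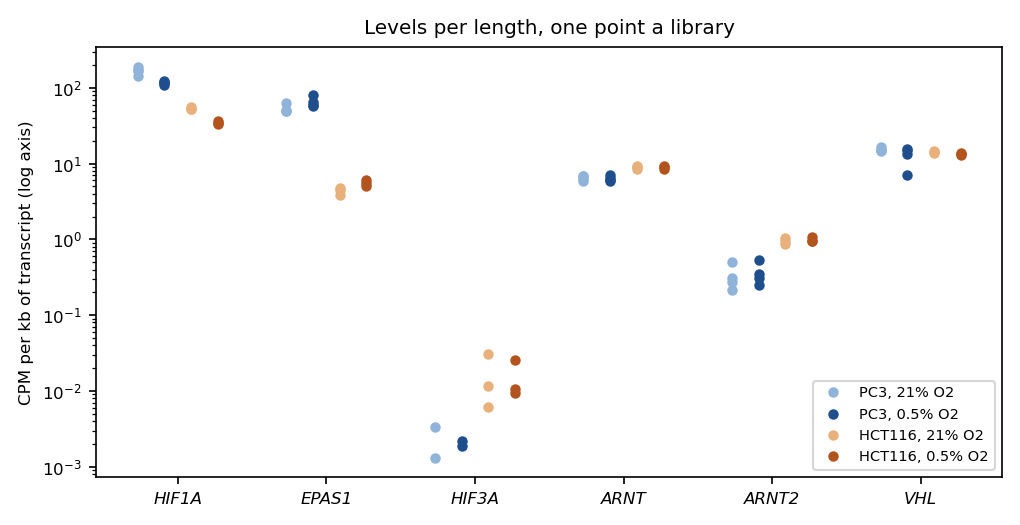
Level of each member in every library, as TMM-scaled CPM per kilobase of transcript on a log axis, with one colour for each line and condition. HIF1A lies highest in all groups, EPAS1 is next in PC3 but below VHL and ARNT in HCT116, and HIF3A lies lowest; 2 normoxic and 2 hypoxic PC3 libraries with no HIF3A count are not drawn.

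The mRNA of the alpha subunits exceeded that of the beta subunits in every library. HIF1A and EPAS1 together had 30.4 to 35.4 times the level per kb of ARNT and ARNT2 together in normoxic PC3, and 5.76 to 6.01 times in normoxic HCT116. In hypoxia the ranges were 23.2 to 29.0 and 3.87 to 4.34, below those of normoxia in either line. EPAS1 made up 24.2 ± 4.29% of the summed HIF1A and EPAS1 level per kb in normoxic PC3 and 36.0 ± 4.30% in hypoxic PC3. In HCT116 its share was 7.45 ± 0.741% in normoxia and 13.9 ± 1.61% in hypoxia. The lowest PC3 share, 20.8%, was above the highest HCT116 share, 15.3%.

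The first question of the study's design is how 16 h of hypoxia changed each transcript. HIF1A mRNA fell in both lines, and EPAS1 mRNA rose in HCT116 and, when PC3 replicates were compared in pairs, in PC3. No change of ARNT, ARNT2 or VHL passed the test in either line. In PC3, edgeR's quasi-likelihood test called 1 of 5 members tested, against 11.3% of the 14309 genes tested. In HCT116 it called 2 of 5, against 25.9% of 14120 genes. HIF3A did not pass the filter on low counts in either line.

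**Figure D2:**
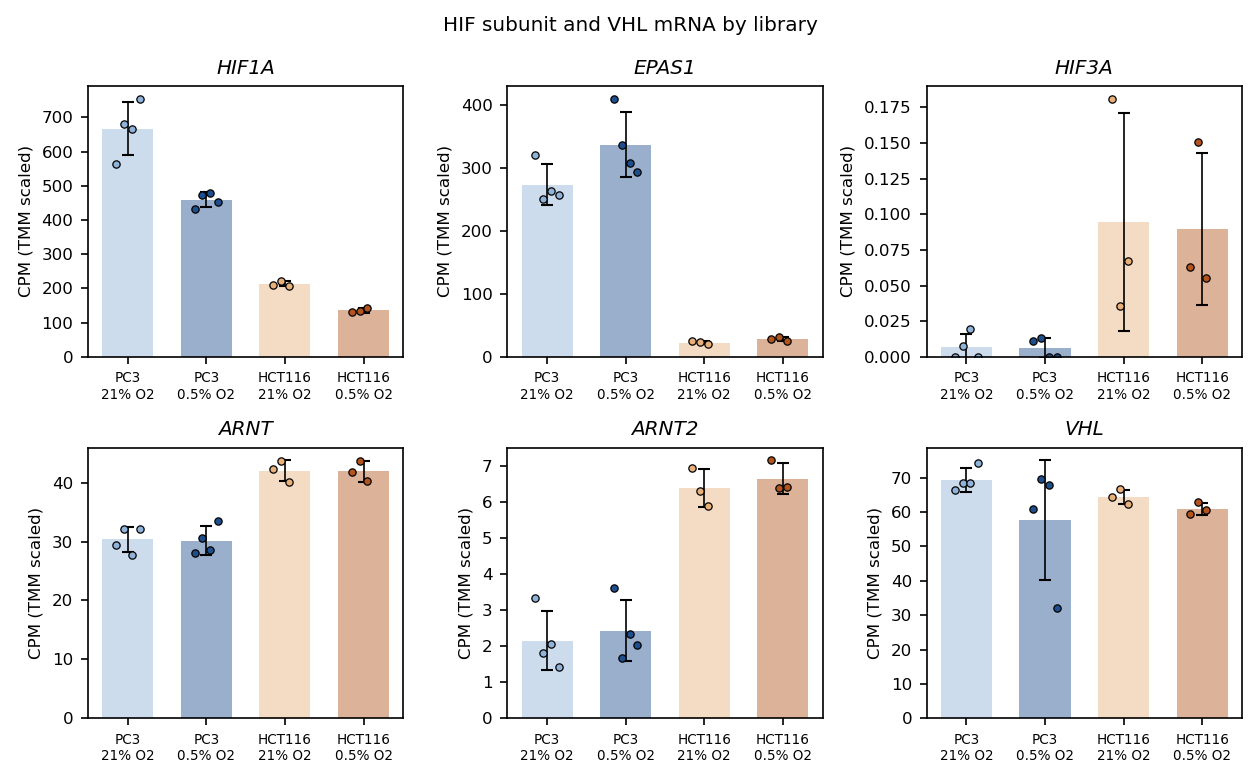
TMM-scaled CPM of the 6 members by library, with bars for the mean and error bars for the SD (4 PC3 or 3 HCT116 libraries per condition). HIF1A is lower in every hypoxic library than in every normoxic library of its line, EPAS1 is far higher in PC3 than in HCT116, and VHL in PC3 hypoxia replicate 4 lies at 32.2 CPM, below the other 3 hypoxic PC3 libraries at 60.9 to 69.7 CPM.

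HIF1A encodes the alpha subunit found in most tissues. Its level was 565, 679, 667 and 754 CPM in normoxic PC3 replicates 1 to 4 and 431, 473, 480 and 453 CPM in the hypoxic ones. The conditions did not overlap, which held for 20.9% of the genes tested in PC3. The log2 fold change was -0.53 (SE 0.087, 95% interval -0.73 to -0.34, edgeR adjusted p = 0.0063), a fold of 0.692, and hypoxia was lower in 4 of 4 pairs. In HCT116, HIF1A was at 209, 222 and 208 CPM in normoxia and at 131, 134 and 143 CPM in hypoxia. These conditions did not overlap either, as in 42.5% of the genes tested in HCT116. Here the log2 fold change was -0.63 (SE 0.063, 95% interval -0.77 to -0.50, edgeR adjusted p = 4.86e-05), a fold of 0.645. The drop in PC3 stayed past the threshold when any library was left out, with adjusted p-values of 0.0027 to 0.030 by edgeR.

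EPAS1 encodes the alpha subunit known for its role in endothelial cells, erythropoietin control and clear cell kidney cancer. PC3 held 322, 252, 265 and 258 CPM in normoxia and 410, 337, 308 and 295 CPM in hypoxia. The conditions overlapped, because replicate 1 was the highest library in both, but hypoxia was higher in 4 of 4 pairs. Without pairing the log2 fold change was 0.31 (SE 0.128, 95% interval 0.019 to 0.59, edgeR adjusted p = 0.156) and did not pass. With the replicate number as a block it was 0.30 (SE 0.054, 95% interval 0.17 to 0.43, edgeR adjusted p = 0.0082) and passed, in a fit that called 28.5% of all genes tested. Without both replicate 1 libraries it passed without pairing as well (log2 fold change 0.28, edgeR adjusted p = 0.0387), and without both replicate 4 libraries it did not (0.34, edgeR adjusted p = 0.184). HCT116 held 24.5, 23.0 and 19.7 CPM in normoxia and 28.3, 31.5 and 25.8 CPM in hypoxia. These conditions did not overlap, which held for 42.5% of the genes tested in HCT116. The log2 fold change was 0.37 (SE 0.095, 95% interval 0.16 to 0.58, edgeR adjusted p = 0.0159), a fold of 1.29. It was lost without HCT116 hypoxia replicate 2 (log2 fold change 0.29, edgeR adjusted p = 0.061) and in a single fit over all 4 groups (edgeR adjusted p = 0.101).

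**Figure D3:**
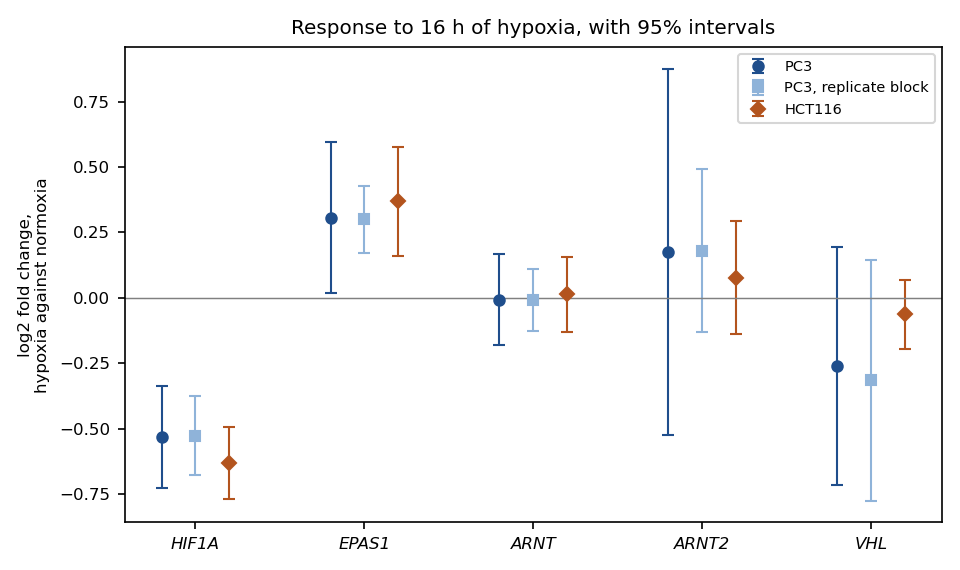
Log2 fold change of hypoxia against normoxia (y axis) of the 5 members tested, with 95% intervals that are not adjusted for the number of genes, for PC3 without and with the replicate number as a block and for HCT116. The intervals of HIF1A lie below 0 and those of EPAS1 above 0, while those of ARNT, ARNT2 and VHL include 0.

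ARNT, the common beta subunit, which also partners the aryl hydrocarbon receptor, had log2 fold changes next to 0. PC3 libraries held 27.8 to 32.1 CPM in normoxia and 28.1 to 33.4 CPM in hypoxia, and the log2 fold change was -0.0066 with a 95% interval of -0.18 to 0.17. HCT116 libraries held 40.2 to 43.6 CPM in normoxia and 40.2 to 43.7 CPM in hypoxia, and the log2 fold change was 0.013 with a 95% interval of -0.13 to 0.16. In PC3 its sign turned with the scaling or with the library left out, and in HCT116 likewise. Changes of ARNT beyond a fold of 0.883 to 1.12 in PC3, or 0.914 to 1.11 in HCT116, lie outside these intervals.

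ARNT2, the paralogue of ARNT best known in neurons, was low in both lines. PC3 libraries held 1.43 to 3.33 CPM in normoxia and 1.68 to 3.62 CPM in hypoxia. Replicate 1 was again the highest in both conditions, and the log2 fold change of 0.18 had a wide 95% interval of -0.52 to 0.88. The HCT116 libraries lay at 5.88 to 6.93 CPM in normoxia and at 6.38 to 7.14 CPM in hypoxia (log2 fold change 0.076, 95% interval -0.14 to 0.29), with the sign turned by scaling to total counts.

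HIF3A, whose splice forms include inhibitors of the other alpha subunits, was close to the detection limit. In PC3 its counts were 0, 1, 2 and 0 in normoxia and 1, 1, 0 and 0 in hypoxia, at or under the floor of 3 counts in all 8 libraries. In HCT116 the counts were 27, 5 and 9 in normoxia and 9, 21 and 7 in hypoxia. The HCT116 libraries of each condition thus differed severalfold among themselves, and the conditions overlapped. A response of HIF3A to hypoxia was not detectable at this depth.

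VHL mRNA lay between 59.4 and 74.4 CPM in all but 1 library. Normoxic PC3 libraries held 66.3, 68.3, 68.4 and 74.4 CPM, and hypoxic PC3 libraries held 60.9, 69.7, 67.7 and 32.2 CPM. The log2 fold change in PC3 was -0.26 (SE 0.20, 95% interval -0.72 to 0.19, edgeR adjusted p = 0.443), and without PC3 hypoxia replicate 4 it was -0.06 (95% interval -0.20 to 0.077, edgeR adjusted p = 0.552). In HCT116, VHL was at 64.2, 66.6 and 62.4 CPM in normoxia and at 59.4, 62.8 and 60.6 CPM in hypoxia. The ranges overlapped by a narrow margin, and the log2 fold change was -0.063 (95% interval -0.20 to 0.070, edgeR adjusted p = 0.475). In PC3 hypoxia replicate 4, VHL was 1.07 below the median of the other 3 hypoxic libraries on the log2 scale, a difference written as -1.07. None of 19 genes measured within 500 kb of VHL was as low in that library, and they ranged from -0.70 to 0.69. The other members there differed by -0.061 (HIF1A), -0.19 (EPAS1), 0.23 (ARNT) and -0.19 (ARNT2).

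The second question is whether the lines responded differently. The difference of the responses, PC3 minus HCT116, was tested as the interaction of line and oxygen over all 14 libraries, which called 2.32% of 15493 genes. It called 0 of 5 members by edgeR, with 0 at an unadjusted p under 0.05 and 0 by DESeq2. The difference was 0.11 on the log2 scale for HIF1A (95% interval -0.15 to 0.37), -0.049 for EPAS1 (-0.42 to 0.32) and -0.0075 for ARNT (-0.24 to 0.22). For ARNT2 it was 0.12 (-0.66 to 0.89) and for VHL -0.19 (-0.72 to 0.35), and the width of these last intervals leaves sizeable differences unresolved. Without PC3 hypoxia replicate 4 the VHL difference was 0.0063.

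Against this, the lines differed in the level of 4 of the 5 members tested, in normoxia as in hypoxia. Of the members tested, the alpha subunits HIF1A and EPAS1 were higher in PC3 and both beta subunits were higher in HCT116. HIF3A, an alpha subunit that did not pass the filter, had more counts in HCT116, as given below. Most genes differ between 2 lines of different tissue, and 83.4% of 15206 genes were called in normoxia and 78.7% of 14890 in hypoxia, so the number of members called is close to the background. The sizes carry the description. EPAS1 was 12.1 times higher in PC3 in normoxia (95% interval 9.95 to 14.7, log2 difference 3.60, edgeR adjusted p = 5.59e-09) and 11.9 times higher in hypoxia (9.45 to 14.9). HIF1A was 3.08 times higher in normoxia (2.67 to 3.55, edgeR adjusted p = 1.23e-07) and 3.38 times in hypoxia (2.95 to 3.88). ARNT was 1.40 times higher in HCT116 in normoxia (1.26 to 1.56, edgeR adjusted p = 8.31e-05) and 1.39 times in hypoxia (1.21 to 1.59).

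ARNT2 was 2.99 times higher in HCT116 in normoxia (95% interval 2.02 to 4.44, edgeR adjusted p = 2.33e-04) and 2.73 times in hypoxia (1.90 to 3.92). VHL differed by a log2 value of 0.087 in normoxia, PC3 minus HCT116 (95% interval -0.038 to 0.21, edgeR adjusted p = 0.168), which passed with scaling by total counts (0.19, edgeR adjusted p = 0.0213). That scaling moved the median log2 difference of all genes from 0.029 to 0.129 in this comparison. In hypoxia the VHL difference was -0.077 (95% interval -0.56 to 0.41), and it was 0.098 without PC3 hypoxia replicate 4. HIF3A did not pass the filter. Its summed counts were 41 in normoxic HCT116 against 3 in normoxic PC3, a ratio per total count of 14.4 (exact 95% interval 4.61 to 72.9), and 37 against 2 in hypoxia (ratio 14.4, 3.73 to 124). These intervals cover counting error only. With no filter on low counts the difference passed in both conditions (edgeR adjusted p = 0.0041 in normoxia and 0.0032 in hypoxia), with edgeR log2 differences of -3.72 and -3.67 that depend on the prior count.

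The ratio of the counts of 2 members within a library does not depend on how libraries are scaled. Ratios to HIF1A share a denominator, so the fall of HIF1A enters each of them and they are not separate results. The ratio of EPAS1 to HIF1A was 0.569, 0.370, 0.397 and 0.342 in normoxic PC3 and 0.953, 0.712, 0.643 and 0.650 in hypoxic PC3. Every hypoxic library was above every normoxic one, and the mean ratio was 1.77 times higher in hypoxia. The exact two-sided permutation test gave p = 0.0286, the smallest that 4 against 4 libraries allow, and 0.114 after Benjamini-Hochberg adjustment over the 8 ratios tested. In HCT116 the ratio was 0.117, 0.104 and 0.0944 in normoxia and 0.217, 0.235 and 0.180 in hypoxia, 2.00 times higher, again without overlap. The exact permutation p was 0.1, the smallest that 3 against 3 libraries allow, and 0.16 after adjustment, so HCT116 could not pass the threshold. With the HCT116 ratios among the 8 adjusted together, no adjusted PC3 value could pass it either. The adjusted values therefore decide nothing about the ratios.

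**Figure D4:**
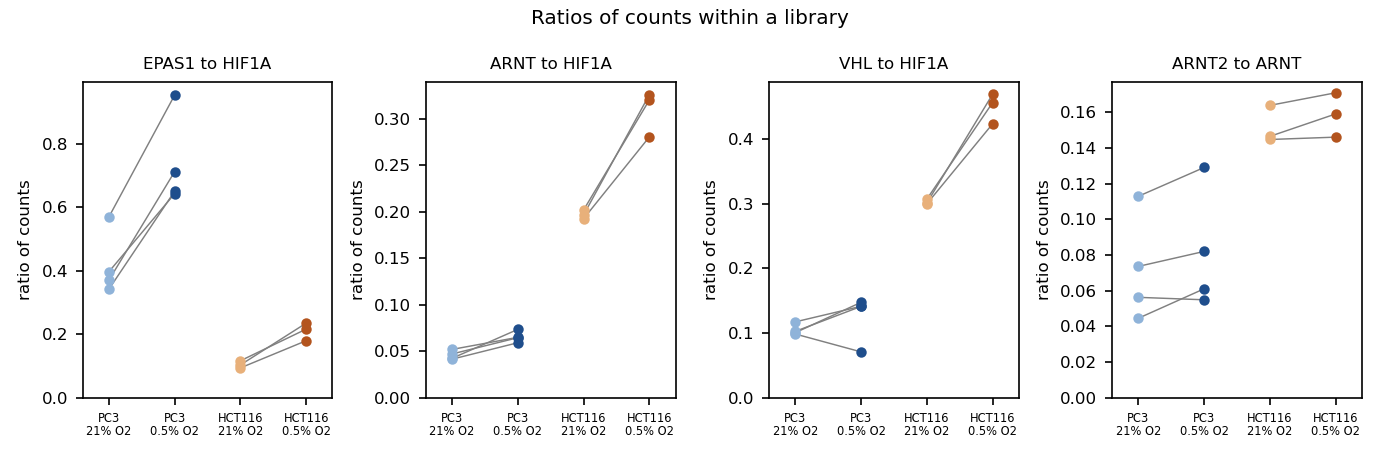
Ratio of the counts of 2 members in each library (y axis, from 0), with lines joining libraries of the same replicate number. EPAS1 to HIF1A and ARNT to HIF1A are higher in every hypoxic library than in every normoxic library of the same line, VHL to HIF1A is so in HCT116 only, and ARNT2 to ARNT overlaps between conditions in both lines.

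The ratio of ARNT to HIF1A was 0.0417 to 0.0522 in normoxic PC3 and 0.0594 to 0.0737 in hypoxic PC3, 1.43 times higher (exact permutation p = 0.0286, adjusted 0.114). It was 0.193 to 0.202 and 0.281 to 0.326 in HCT116, 1.56 times higher (exact permutation p = 0.1, adjusted 0.16). ARNT itself had log2 fold changes of -0.0066 in PC3 and 0.013 in HCT116, so these rises largely restate the fall of HIF1A. VHL to HIF1A was 0.299 to 0.307 in normoxic and 0.423 to 0.468 in hypoxic HCT116, 1.48 times higher (exact permutation p = 0.1). In PC3 it was 0.0987 to 0.117 in normoxia. The hypoxic libraries of replicates 1 to 3 lay at 0.141 to 0.147 and replicate 4 at 0.0711, and the exact permutation p was 0.514. Without that library, singled out here for its low value, the ratio was higher in hypoxia by 0.45 on the log2 scale. The exact permutation p was then 0.0286, unadjusted and the smallest that 4 against 3 libraries allow. The ratio of ARNT2 to ARNT overlapped between conditions in both lines (exact permutation p = 0.657 in PC3 and 0.6 in HCT116).

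Of the 4 hydroxylases that label the alpha subunits for VHL or block their activity, 2 rose in both lines. EGLN1, the main prolyl hydroxylase acting on HIF-1α, was at 86.3 to 93.2 CPM in normoxic and 175 to 245 CPM in hypoxic PC3. It rose with a log2 fold change of 1.22 (SE 0.097, edgeR adjusted p = 1.52e-04), and in HCT116 with 1.56 (SE 0.059, edgeR adjusted p = 1.63e-08). EGLN3, an inducible prolyl hydroxylase, was at 1.28 to 3.23 CPM in normoxic and 5.45 to 10.4 CPM in hypoxic PC3. It rose by 1.88 on the log2 scale in PC3 (SE 0.331, edgeR adjusted p = 0.0086) and by 2.62 in HCT116 (SE 0.075, edgeR adjusted p = 3.40e-09). EGLN2, the third prolyl hydroxylase, had log2 fold changes of 0.085 in PC3 and -0.044 in HCT116, and HIF1AN, the asparaginyl hydroxylase, of 0.031 and 0.19, none past the threshold. HIF1AN in HCT116 missed it narrowly (edgeR adjusted p = 0.0512), and passed with DESeq2 (adjusted p = 0.0489) and with edgeR when at least 10 counts were asked of every library (adjusted p = 0.0494). EGLN2 passed in PC3 when both replicate 4 libraries were left out and the replicate block was used (0.10, edgeR adjusted p = 0.0451). By edgeR 2 of 4 hydroxylases were called in each line, against 11.3% of all genes tested in PC3 and 25.9% in HCT116, and DESeq2 called 2 in PC3 and 3 in HCT116. By edgeR they had a median log2 fold change of 0.65 in PC3 and 0.88 in HCT116, against 0.0023 and 0.0018 over all genes tested.

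No partner of VHL in its ubiquitin ligase passed the test in either line. The partners measured were the elongins TCEB1 and TCEB2, the scaffold CUL2, the RING protein RBX1, the conjugating enzymes UBE2D1, UBE2D2 and UBE2D3, and NEDD8, the modifier that activates cullins. Of these 8 genes, 0 were called in either line by edgeR and 0 by DESeq2. Over all genes tested, edgeR called 11.3% in PC3 and 25.9% in HCT116. With only 8 genes, 0 calls cannot be told apart from these shares. At an unadjusted p under 0.05, edgeR and DESeq2 each gave 0 in PC3 and 1 in HCT116. The log2 fold changes were -0.085 to 0.22 in PC3, with CUL2 lowest and TCEB2 highest, and -0.20 to 0.20 in HCT116, with TCEB1 lowest and RBX1 highest. Some partners passed under other settings. In HCT116 these were RBX1 (0.41, edgeR adjusted p = 0.0023) and TCEB2 (0.34, edgeR adjusted p = 0.0032) without normoxia replicate 3, and CUL2 (-0.25, edgeR adjusted p = 0.0160) and TCEB1 (-0.29, edgeR adjusted p = 0.0367) with scaling by total counts. In PC3 CUL2 (-0.075, edgeR adjusted p = 0.0411) and TCEB2 (0.12, edgeR adjusted p = 0.0219) passed without both replicate 4 libraries when the replicate block was used. In PC3 the signs of HIF1AN, TCEB1, UBE2D2 and UBE2D3 depended on the scaling or on replicate 4.

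**Figure D5:**
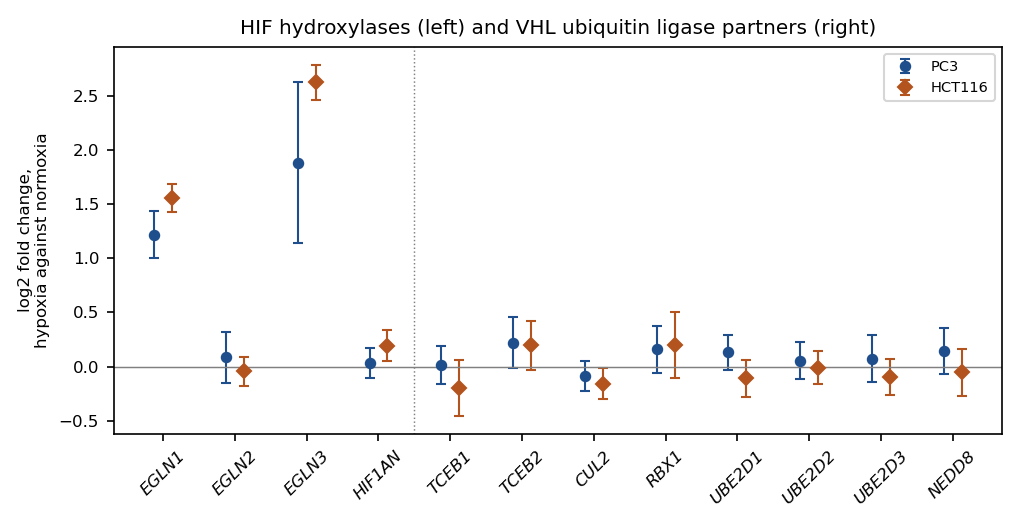
Log2 fold change of hypoxia against normoxia (y axis), with 95% intervals not adjusted for the number of genes, of the 4 HIF hydroxylases and the 8 partners of VHL in PC3 and HCT116. EGLN1 and EGLN3 lie above 1 in both lines, and all other points lie between -0.20 and 0.22.

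The genes whose products bind or modify the HIF subunits were described as further lists. Of the 11 coactivators and repressors, 2 rose in PC3 and 6 in HCT116, and none fell, against 11.3% and 25.9% of all genes called in either direction. In PC3 these were ZMYND8, a chromatin reader that takes part in HIF-dependent transcription (log2 fold change 0.78, edgeR adjusted p = 0.0037), and CITED2, which competes with HIF alpha for the coactivators CREBBP and EP300 (0.58, edgeR adjusted p = 0.0451). CITED2 also rose in HCT116 (0.66, edgeR adjusted p = 9.28e-05), with HEXIM1 (0.47), HIPK2 (0.40) and the acetyltransferase KAT5 (0.30) among the others. The median over the list was 0.062 in PC3 and 0.30 in HCT116. The CITED2 call in PC3 was lost in 6 of 8 fits that left out a library, with log2 fold changes of 0.50 to 0.73, and with upper-quartile or total count scaling. HIPK2 in HCT116 was not called in the single fit over all 4 groups (edgeR adjusted p = 0.152).

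Of the 30 regulators of HIF alpha RNA, translation or stability, 28 were tested in each line. In PC3, 3 rose and 2 fell, with a median of 0.034, and in HCT116, 3 rose and 5 fell, with a median of 0.042. The 5 of 28 called in PC3 and 8 of 28 in HCT116 stand beside backgrounds of 11.3% and 25.9%, and the second is close to its background. SIAH2, a ubiquitin ligase that acts on prolyl hydroxylases, rose in both lines (0.46 in PC3, edgeR adjusted p = 0.0050, and 0.44 in HCT116, edgeR adjusted p = 6.39e-04). GSK3B, a kinase that can phosphorylate HIF-1α, rose in PC3 (0.25). RWDD3, which promotes sumoylation, and USP20, a deubiquitinase of HIF-1α, fell in PC3 (-0.38 and -0.28). In HCT116 SAT1 rose (0.62), and SAT2 (-0.35) and COMMD1 (-0.34) fell. The calls of GSK3B and USP20 were each lost in 7 of 8 fits that left out a PC3 library, that of RWDD3 in 3 of 8, and that of COMMD1 in 4 of 6 fits in HCT116. That of GSK3B was also lost with upper-quartile or total count scaling, and SAT1 (edgeR adjusted p = 0.192) and COMMD1 (0.0910) were not called in the single fit over all 4 groups.

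Of 17 other genes of the bHLH-PAS family, to which all HIF subunits belong, 15 were tested in PC3 and 14 in HCT116. The 1 call in PC3 and 2 calls in HCT116 stand beside 11.3% and 25.9% of all genes called, and neither is above its background. In PC3 1 rose, the clock gene ARNTL (0.54, edgeR adjusted p = 0.0472), a call lost in 7 of 8 fits that left out a library and with upper-quartile or total count scaling. In HCT116 CLOCK rose (0.38, edgeR adjusted p = 0.0012) and PER3 fell (-0.57, edgeR adjusted p = 0.0062), the latter not called in the single fit over all 4 groups (edgeR adjusted p = 0.0750). The medians were 0.046 and 0.092. With the replicate number as a block, PC3 had 4 calls in this family, 4 among the coactivators and repressors and 9 among the regulators of HIF alpha, in a fit that called 28.5% of all genes tested.

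The target genes of HIF listed for these cells were called higher in 12 of 12 cases in PC3 and in 12 of 12 in HCT116. Their median log2 fold changes were 1.52 and 2.89. Among all genes tested, 11.3% were called in PC3 and 25.9% in HCT116, in either direction. They included ANGPTL4 (3.38 in PC3 and 4.63 in HCT116), NDRG1 (2.87 in PC3), PFKFB4 (2.02 and 3.34), BNIP3 (1.71 in PC3), CA9 (6.03 in HCT116) and ANKRD37 (3.44 in HCT116). The interaction was called for 7 of the 12, each with the smaller response in PC3, in the fit that called 2.32% of all genes and 0 of the 5 members. With the replicate number as a block it was called for 11 of the 12, in a fit that called 1307 of 15493 genes. The list was chosen with results of these libraries known, so its direction is not independent evidence.

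The genes whose pattern was most like a member's were found by Pearson's r of log2 CPM over the 14 libraries, after each line's mean was subtracted, over the 12638 genes whose average reached 1 CPM. They are given as a description, since the points share libraries and depth. HIF1A was most like SNX2 (r = 0.970), PTBP2 (0.970) and DYNC2LI1 (0.965), and EPAS1 was most like TMEM57 (0.937), ZBTB10 (0.928) and NUAK1 (0.923). ARNT was most like TMEM135 (0.852), MAN1A2 (0.852) and TC2N (0.844), and ARNT2 was most like MYL9 (0.971), VGLL1 (0.961) and GPNMB (0.960). Of these genes VGLL1 was at 0 CPM in HCT116, so its likeness to ARNT2 lies within PC3. ARNT2, MYL9, VGLL1 and GPNMB were all highest in replicate 1 of both PC3 conditions. MYL9 was at 64.0 CPM in normoxia and 65.4 CPM in hypoxia there, against 20.4 to 38.6 CPM in the other PC3 libraries. VHL was most like PPIG (0.983), TPR (0.981) and CCDC18 (0.980), and all 3 of these were low in PC3 hypoxia replicate 4, by log2 differences of -1.01, -1.48 and -1.76 from the median of the other hypoxic libraries. Among the members, HIF1A and EPAS1 had an r of -0.82 with each other and EPAS1 and ARNT2 one of 0.61. EPAS1, like ARNT2, was highest in replicate 1 of both PC3 conditions.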

How the data were processed

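Polyadenylated RNA of PC3 and HCT116 cells was sequenced in 14 libraries. The authors aligned reads with HISAT2 (version 2.05 in the submitters' processing notes) to the ERCC spike-in and then to GRCh37, counted them within RefSeq genes with HTSeq (0.5.4p3, intersection-strict) and deposited raw counts. The RefSeq release is not given in the sources used here. ERCC counts were not used here.

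Counts were tested with edgeR 4.0.16 (R 4.3.3): filterByExpr, TMM, quasi-likelihood test, two-sided, Benjamini-Hochberg over all genes tested, threshold 0.05. CPM used the TMM factors over 14 libraries. TMM takes most genes as unchanged, so a shift of all mRNA together is not visible. SE is the unshrunk log2 fold change over the square root of F. Ratios were compared by exact permutation tests over libraries. Lengths and positions came from GENCODE's GRCh37 annotation, and 87.0% of genes had a length. Promoter sequences came from RefSeq (GRCh38.p14 table). DESeq2 1.42.0, other scalings and filters, the replicate number as a block and each library left out were the alternatives. Those leaving out both PC3 libraries of a replicate were chosen after seeing the data. The replicate numbers were taken to pair the PC3 samples. Deviations of same-numbered PC3 libraries from their group means correlated at 0.675, 0.267, 0.140 and 0.282 across genes. Differently numbered PC3 libraries correlated at -0.420 to 0.198. Hypoxia replicate 3 was at 0.136 with normoxia replicate 2, so the pairing was clearest for replicate 1. In HCT116 same-numbered libraries correlated at 0.091, 0.138 and 0.043 and differently numbered ones at -0.094 to 0.0021. Those weaker values were not taken as pairs, although every same-numbered one was above every differently numbered one. That did not hold in PC3, so the choice to pair PC3 only was a judgement on size.

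Any 2 replicates differed by more than counting error (chi-square per gene 12.5 to 268). Counts were simulated with 200 genes changed by a fold of 2. Of these, edgeR recovered 181 in PC3 (15 false calls among 14237 genes) and 198 in HCT116 (16 among 14028). For the interaction it recovered 165 (8 among 15296). The changes of HIF1A and EPAS1 with hypoxia were smaller than this fold, and the simulation held no replicate effect. The recovery therefore does not measure sensitivity to changes of that size. The members and lists were chosen with earlier results of these data known. All 6 members, all hydroxylases and all VHL partners are named, and of each other list up to 4 genes a line, those past the threshold with the largest absolute log2 fold change. The partners of VHL singled out under other settings, and the neighbours of VHL, were looked at after values were seen.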

Additional observations from a re-analysis of the deposited data

Results flagged for a closer look

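Dixon's test was applied to 84 sets of 4 PC3 libraries, one for each named gene or ratio and condition, and set 9 values apart, where chance alone gives about 1 in 20 sets. The ratio of VHL to HIF1A in PC3 hypoxia replicate 4 was 0.0711, against 0.141 to 0.147 in the other hypoxic PC3 libraries. VHL itself, at 32.2 CPM there against 60.9 to 69.7 CPM, was not set apart by the test. The same library had CLOCK at 218 CPM against 254 to 255, SIAH2 at 62.4 CPM against 51.9 to 53.3 and UBE2D2 at 151 CPM against 125 to 128. In PC3 normoxia replicate 4, BNIP3 was at 39.8 CPM against 47.6 to 48.9 and HIF1AN at 251 CPM against 267 to 269. In PC3 normoxia replicate 1, ANGPTL4 was at 14.5 CPM against 5.60 to 5.98, and SAT1 was at 94.3 CPM against 47.1 to 49.4. SAT1 was at 94.3 CPM in PC3 hypoxia replicate 1 too, against 45.7 to 51.4. EPAS1 and ARNT2 were also highest in replicate 1 of both conditions, without being set apart by the test.

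The response to hypoxia of 4 named target genes differed between the lines in the interaction test (edgeR). The difference, PC3 minus HCT116, was -4.35 for CA9 (SE 0.451, adjusted p = 7.77e-05), -1.76 for ANKRD37 (SE 0.254, adjusted p = 0.0018), -1.50 for BNIP3 (SE 0.166, adjusted p = 1.42e-04) and -1.31 for PFKFB4 (SE 0.228, adjusted p = 0.0078) on the log2 scale.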

How the results depend on the processing

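The fall of HIF1A and the 4 called line differences kept direction and call under every alternative run. The replicate block raised the members called in PC3 from 1 to 2 (EPAS1, 0.30) and the genes called from 1620 to 4074. Leaving out both PC3 libraries of replicate 1 gave 2 members (EPAS1 0.28), and leaving out both of replicate 4 with the block gave 2 members (EPAS1 0.34) and 7059 genes. DESeq2 called 2568 genes in PC3 and a fit over all 4 groups 2465. That fit gave 1733 genes and 1 member in HCT116 (EPAS1 0.35, not called). In HCT116, where numbers were not taken as pairs, the block gave 3754 genes and changed no call of a member. EPAS1 there was 0.37 with the block (SE 0.070, edgeR adjusted p = 0.0050). For the interaction DESeq2 called 971 genes and the block 1307, against 359. VHL in normoxia, PC3 minus HCT116, passed with total counts (0.19). The paired exact permutation test, which cannot go below 0.125 in PC3, gave 0.125 for EPAS1 to HIF1A (0.83 on the log2 scale) and ARNT to HIF1A (0.52).

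Signs near 0 turned as follows. ARNT in PC3 was 0.00065 with median-of-ratios scaling, 0.0015 with DESeq2 and 0.011 without both replicate 1 libraries. ARNT in HCT116 was -0.080 with total counts and -0.0042 in the fit over 4 groups, and ARNT2 there -0.018 with total counts. The ARNT interaction was 0.0063 with median-of-ratios scaling and 0.0055 with DESeq2. In PC3 with total counts, EGLN2 was -0.017, HIF1AN -0.075, TCEB1 -0.094, UBE2D2 -0.052 and UBE2D3 -0.036, where the median of all genes moved to -0.10. With upper-quartile scaling HIF1AN was -0.013 and TCEB1 -0.030. Without both replicate 4 libraries, HIF1AN was -0.0065, TCEB1 -0.075, UBE2D2 -0.030 and UBE2D3 -0.0020, and with the block added HIF1AN was -0.0070, TCEB1 -0.075, UBE2D2 -0.030 and UBE2D3 -0.0024. The cause was not tested.

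Leaving out each library in turn gave the following ranges. In PC3, 1 to 1 member and 553 to 2085 genes were called (553 without normoxia replicate 3, 574 without normoxia replicate 2, 728 without hypoxia replicate 2), with EPAS1 at 0.19 to 0.40, ARNT at -0.054 to 0.032, ARNT2 at -0.097 to 0.48 and VHL at -0.36 to -0.059. In HCT116, 1 to 2 members were called, with EPAS1 at 0.28 to 0.44 and ARNT at -0.026 to 0.049. The interaction called 177 to 717 genes (177 without HCT116 hypoxia replicate 2, 717 without PC3 hypoxia replicate 4), with EPAS1 at -0.16 to 0.037, ARNT at -0.064 to 0.028, ARNT2 at -0.15 to 0.41 and VHL at -0.29 to 0.0063. VHL in hypoxia, PC3 minus HCT116, was -0.18 to 0.098. Log2 ratio differences in PC3 were 0.70 to 0.98 for EPAS1 to HIF1A, -0.055 to 0.44 for ARNT2 to ARNT and 0.10 to 0.45 for VHL to HIF1A. The first of these had an unadjusted exact permutation p of 0.0286 with any normoxic library left out. Its unadjusted p was 0.0571 with any hypoxic one left out. TCEB1 in PC3 was -0.044 to 0.054, UBE2D2 -0.0075 to 0.089 and UBE2D3 -0.019 to 0.13; in HCT116 NEDD8 was -0.14 to 0.071 and UBE2D2 -0.066 to 0.018. Depth limits HIF3A, at 0 to 2 counts in PC3.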
